A study of Mus musculus with 8 samples.

Results

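The cells described here are neutrophils of mouse skin wounds that carry Cxcr2, the receptor for the chemokines Cxcl1, Cxcl2 and Cxcl3, and that are low in genes of 3 other neutrophil states. They were chosen from their own counts, in cells with over 200 genes and under 20% mitochondrial UMIs (unique molecular identifiers, each a tagged RNA molecule). A neutrophil had an S100a8 and S100a9 sum of at least 40 per 10000 UMIs, at least 1 UMI of Csf3r, and at most 2 UMIs in all of Csf1r, Ms4a7, C1qa and Fn1. A member had, in addition, at least 2 UMIs of Cxcr2, under 25 per 10000 of Ccl3, Il1a and Tnf, under 10 of Ngp, Lcn2 and Mmp8, and under 10 of Ifit1, Ifit3 and Rsad2. The rule found 261 members among 35158 kept cells (0.742%) and among 7670 neutrophils (3.4%). The values of these 17 genes chose the cells, so they are given below as a description and were not tested.

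The cells came from CD45+ immune cells, alive by Calcein AM, of full-thickness back wounds of male C57BL/6J mice. Diabetic mice had received 120 mg/kg streptozotocin, a toxin of pancreatic beta cells, at 4 weeks of age and were used at a blood glucose of at least 16.5 mmol/L. Control mice had not been made diabetic, and the ages at wounding were not given in the sources used here. Wounds were taken on days 1, 3, 5 and 7, and the wounds of several mice were pooled, so the 8 libraries are 1 per group and day and no day holds a replicate. Streptozotocin diabetes models the loss of insulin, and mouse back skin heals largely by contraction.

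Neutrophils leave the bone marrow once they have matured, and Csf3r, the receptor for granulocyte colony-stimulating factor, drives their production. Cxcr2 guides them out of the marrow and along chemokine gradients into injured tissue, where they are among the first cells to arrive. In skin wounds they kill microbes and release proteases and cytokines, and they are later cleared by macrophages.

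The label of these cells rests on 5 marker genes, which are Cxcr2, Csf3r, Lrg1, a secreted glycoprotein of neutrophil granules, Hdc, the enzyme that makes histamine, and Il1r2, a decoy receptor that binds interleukin-1 without signalling. All 5 were detected in 195 of the 261 members (74.7%), 4 in 62 (23.8%) and 3 in 4 (1.53%), where the rule itself required Cxcr2 and Csf3r. Since these genes give the cells their label, the 250 bases before their transcription starts are shown (RefSeq, GRCm38.p6, 5′ to 3′ on the gene's strand). Capitals mark AGGAAG on either strand (CTTCCT when reversed), a core that Ets factors such as PU.1 can bind. The windows are chr1:74153744-74153993 (+) for Cxcr2, chr17:56121947-56122196 (-) for Lrg1, chr4:126024409-126024658 (+) for Csf3r, chr2:126618679-126618928 (-) for Hdc and chr1:40085843-40086092 (+) for Il1r2.
Cxcr2: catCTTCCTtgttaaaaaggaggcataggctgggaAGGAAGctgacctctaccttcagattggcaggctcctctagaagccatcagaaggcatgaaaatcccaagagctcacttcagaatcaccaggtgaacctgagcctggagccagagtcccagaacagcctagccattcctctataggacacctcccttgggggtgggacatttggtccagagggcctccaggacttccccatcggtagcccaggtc
Lrg1: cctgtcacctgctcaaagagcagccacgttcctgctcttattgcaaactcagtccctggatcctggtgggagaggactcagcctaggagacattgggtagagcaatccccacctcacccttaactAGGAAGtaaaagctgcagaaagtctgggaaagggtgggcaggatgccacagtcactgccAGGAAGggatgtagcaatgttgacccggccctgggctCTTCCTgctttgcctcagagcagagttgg
Csf3r: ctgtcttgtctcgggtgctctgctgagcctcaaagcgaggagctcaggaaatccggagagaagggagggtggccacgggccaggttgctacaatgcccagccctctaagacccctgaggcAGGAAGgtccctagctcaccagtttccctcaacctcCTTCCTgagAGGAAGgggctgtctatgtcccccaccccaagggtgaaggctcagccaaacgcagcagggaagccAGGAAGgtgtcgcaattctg
Hdc: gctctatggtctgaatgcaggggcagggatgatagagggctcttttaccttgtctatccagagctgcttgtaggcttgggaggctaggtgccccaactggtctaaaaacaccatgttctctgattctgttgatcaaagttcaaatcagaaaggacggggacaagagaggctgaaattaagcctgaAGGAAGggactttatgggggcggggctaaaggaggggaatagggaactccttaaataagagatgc
Il1r2: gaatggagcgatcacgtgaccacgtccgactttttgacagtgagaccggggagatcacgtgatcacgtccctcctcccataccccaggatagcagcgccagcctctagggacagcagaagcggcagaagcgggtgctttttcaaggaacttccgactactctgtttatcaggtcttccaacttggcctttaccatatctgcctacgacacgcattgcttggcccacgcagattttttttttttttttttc

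The letters occurred 2 times before Cxcr2, 3 times before Lrg1, 4 times before Csf3r, once before Hdc and not at all before Il1r2. Of 32851 windows of that length before mouse genes, 29.5% held at least 1 match and 1.22% held 3 or more. A match says only that these letters are present, and no binding was measured here.

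Depth was similar across the libraries for these cells. The 8 libraries held 19236522 to 33842509 UMIs and 3266 to 5436 kept cells, with median UMIs per kept cell from 2575 (control day 3) to 8234 (control day 5). Members had medians of 1806 to 2772 UMIs, and their summed UMIs ran from 10631 (control day 5) to 351264 (control day 3) per library. Barcodes are numbered within each library and 4059 names recur in all 8, so a shared name says nothing about a shared cell.

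Diabetic wounds gave 10, 33, 14 and 6 members on days 1, 3, 5 and 7, and control wounds gave 6, 157, 5 and 30. The control day 3 library alone held 60.2% of them. Cells of 1 library share their mice and their preparation, so the tests below are made over libraries. Where 2 libraries are set side by side with an interval, it covers counting error only and is no test of the groups.

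The level of Cxcr2 in these cells was graded. Of the neutrophils that passed every other limit, 142 had no Cxcr2 UMI and 84 had 1, while 52 had 2, 47 had 3, 29 had 4, 29 had 5 and 104 had 6 or more. The median over members was 5 and the highest cell had 35. Levels below are in CPM, UMIs summed over cells on a scale where 10000 CPM is 1% of those cells' UMIs. The 52 cells just inside the limit and the 84 just outside it were close in other markers, with 1262 and 1341 CPM of Lrg1, 4472 and 4682 of Hdc and 4853 and 4653 of Il1r2, and with median depths of 1901 and 2059 UMIs. Cxcr2 UMIs were also counted in T cells, which do not make this receptor as a rule. Their source there, such as free RNA, was not tested. A Cxcr2 UMI was found in 2.02 to 6.78% of T cells of a library, at median depths of 3663 to 5214 UMIs, and at most 3 T cells of a library had 2 or more.

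**Figure D1:**
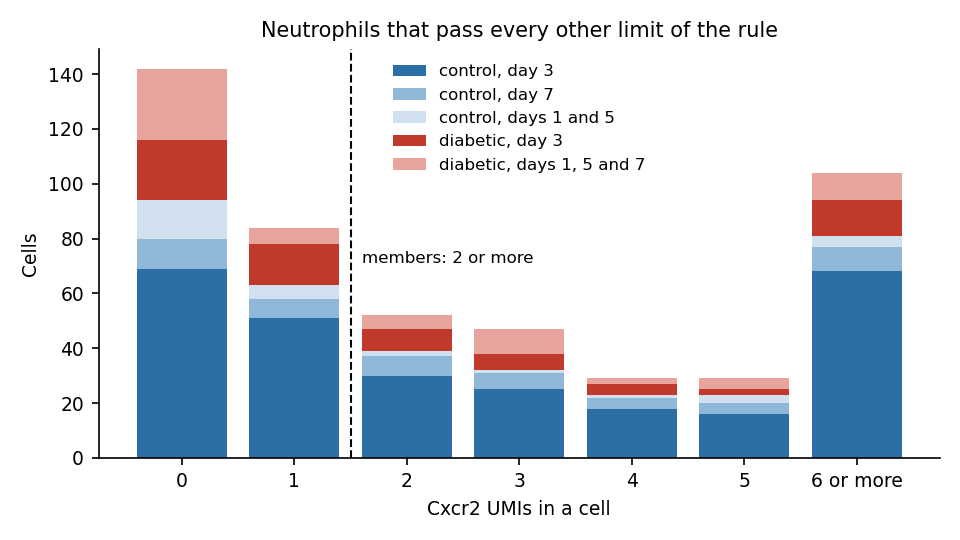
Number of cells (vertical axis) by Cxcr2 UMIs in the cell (horizontal axis) among neutrophils that passed every other limit, stacked by library groups; the dashed line is the limit of 2 UMIs. Of these cells 226 lie below the limit and 261 at or above it, with control day 3 (dark blue) the most common source on both sides.

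Most neutrophils with Cxcr2 were not members. At least 2 Cxcr2 UMIs were found in 39.5, 42.6, 52.4 and 46.7% of all neutrophils of diabetic days 1, 3, 5 and 7, and in 35.0, 59.4, 59.7 and 54.2% of those of control days 1, 3, 5 and 7. The limit on Ccl3, Il1a and Tnf, inflammatory cytokines that many wound neutrophils make, removed most of them. It removed 92.8, 85.0, 91.6 and 92.3% of the diabetic cells with Cxcr2, and 94.0, 63.1, 79.2 and 72.3% of the control ones, in the order of days. Over all 7670 neutrophils, 86.3% were at or over that limit, 55.8% at or over the one on Ngp, Lcn2 and Mmp8, which are made in the marrow and stored in granules, and 12.6% at or over the interferon one, with cells counted under each they met.

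The members' share was highest in the control wounds of day 3. They made up 0.210, 0.607, 0.335 and 0.165% of the kept cells of diabetic days 1, 3, 5 and 7 and 0.136, 3.27, 0.153 and 0.645% of those of control days 1, 3, 5 and 7. The 95% exact binomial intervals, which cover counting error only, were 2.78 to 3.81% for control day 3 and 0.418 to 0.851% for diabetic day 3. On day 7 they were 0.435 to 0.919% in control and 0.0604 to 0.358% in diabetic wounds, while on days 1 and 5 the intervals of the groups overlapped.

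The mean of the 4 within-day differences in share of kept cells was −0.721 percentage points, diabetic minus control (SD 1.32, n = 4 days), from 0.329% against 1.05%. The exact sign-flip permutation test over days gave p = 0.5 (two-sided), and 4 pairs cannot give a p below about 0.13. Day 3 decided the size of this difference: without it the mean was −0.0748. The diabetic share was lower on 2 of 4 days. With cells thinned to 1000 UMIs and the Cxcr2 limit lowered to 1 UMI, both changed at once, it was lower on 4 of 4 days, with differences of −0.0026 and −0.019 points on days 1 and 5. The share depends on each limit of the rule, among them the one on Ccl3, Il1a and Tnf. The median of that sum over all neutrophils was 119, 75.4, 139 and 119 per 10000 on diabetic days 1, 3, 5 and 7. On control days 1, 3, 5 and 7 it was 131, 41.5, 65.0 and 65.0. The part of this limit in the difference in share was not tested.

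As a share of the neutrophils, members were 0.682, 2.25, 1.47 and 1.96% in diabetic and 0.383, 11.9, 3.88 and 6.54% in control wounds of days 1, 3, 5 and 7. The groups differed by −4.07 points on average (SD 4.19, n = 4 days, p = 0.25 by the exact sign-flip permutation test), and the diabetic share was lower on 3 of 4 days. The control day 5 neutrophils were only 129 cells.

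**Figure D2:**
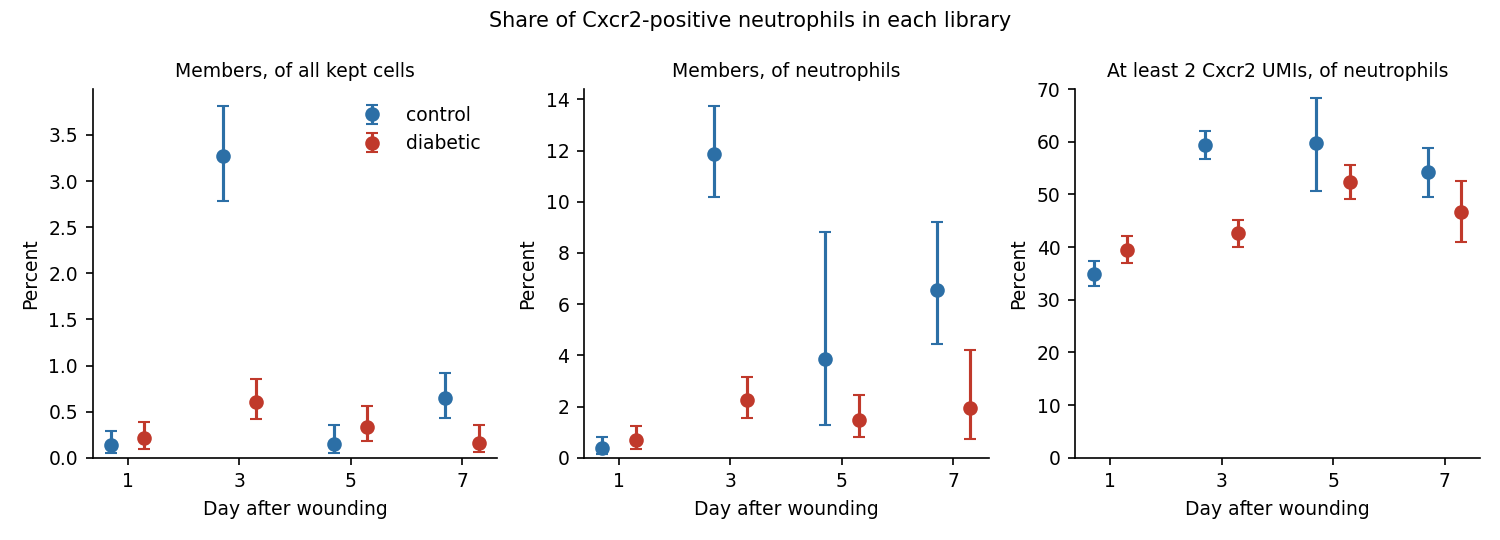
Members as a percent of kept cells (left) and of neutrophils (middle) on each day after wounding, 1 library per group and day. The right panel shows all neutrophils with at least 2 Cxcr2 UMIs as a percent of neutrophils. Error bars are 95% exact binomial intervals. The control library of day 3 stands highest in the left and middle panels, at 3.27% and 11.9%. In the right panel control day 5 (59.7%) lies just above control day 3 (59.4%).

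The markers were present in every library. Cxcr2 stood at 2215, 2618, 2045 and 2284 CPM in members of diabetic days 1, 3, 5 and 7 and at 2753, 3003, 3104 and 2599 CPM in those of control days 1, 3, 5 and 7, all control libraries but that of day 7 lying above all diabetic ones. In the other neutrophils it stood at 659 to 987 CPM in diabetic and 592 to 1444 CPM in control libraries. Cxcr2 and Csf3r were used to choose the cells, so these levels are no finding.

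Il1r2, which the rule did not use, was even across libraries, at 5317, 5265, 4872 and 4932 CPM in diabetic members and 5262, 5139, 4045 and 4988 CPM in control members of days 1, 3, 5 and 7. It lay above the level of the other neutrophils of the same library in all but control day 5, where those had 4636 CPM. Hdc ranged more widely, at 7588, 4621, 3357 and 6851 CPM in diabetic and 4048, 5756, 4045 and 5033 CPM in control members, and other neutrophils had 3801 to 4830 CPM. The groups overlapped for both genes.

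Lrg1 was the most uneven marker. It was at 1052, 1414, 1439 and 1005 CPM in diabetic members and at 1214, 2477, 282 and 1090 CPM in control members of days 1, 3, 5 and 7, and 64 members (24.5%) had none, against 5 members without Hdc and 1 without Il1r2. Control day 3 was the highest library for Lrg1 also among other neutrophils, at 1850 CPM against 822 to 1333 in the rest. In T cells Lrg1 was at 14.7 to 59.6 CPM, Hdc at 55.0 to 187 and Il1r2 at 163 to 414 CPM, all below every member library.

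**Figure D3:**
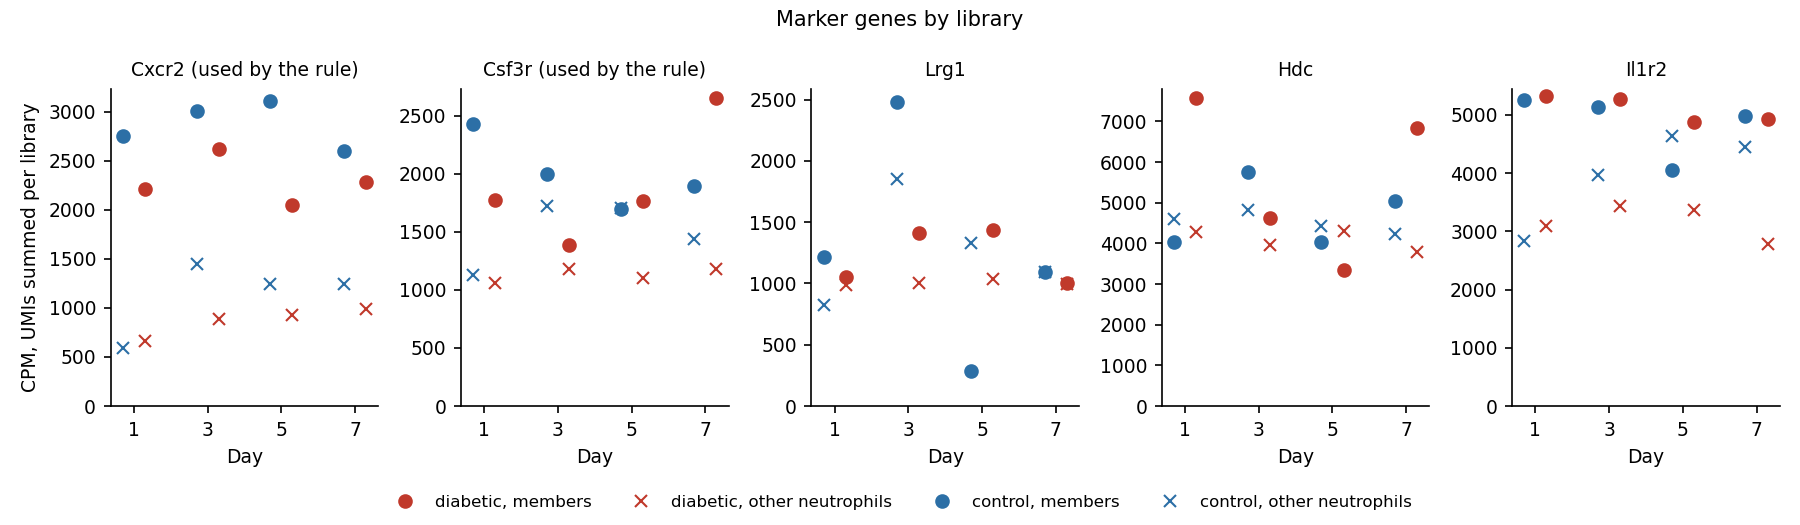
Level in CPM (vertical axis) of the 5 marker genes by day, in members (circles) and other neutrophils (crosses) of the diabetic (red) and control (blue) libraries. Il1r2 lies in a narrow band in members from 4045 to 5317 CPM, while Lrg1 spans 282 to 2477 CPM.

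The word mature in the label rests on genes of granule formation, which developing neutrophils switch on in the marrow and switch off before release. The primary granule genes Mpo and Elane had 1 UMI each over all members, and Prtn3 and Ctsg had none. Camp and Ltf, of secondary granules, had 2 and 6 UMIs in all, and the factors Cebpe and Gfi1, which drive granule stages, had none. These genes were as scarce in the other neutrophils, at 0.1 to 2.6 CPM for the primary granule genes and 18.2 CPM for Ltf, so they do not set the members apart. Cd177, a surface protein of granule-rich neutrophils, had 6 UMIs in all members (10.3 CPM) against 132 CPM in the others, but 18.9 CPM in those past the same limits with under 2 Cxcr2 UMIs. These sums pool the libraries, most members being of control day 3. Not all granule genes were scarce. The 10 genes of the secondary granule list together summed to 4215 to 9310 CPM in members of the 8 libraries. Retnlg of that list had 1357 UMIs in all members (2335 CPM, against 4784 CPM in the other neutrophils). The rule itself capped Ngp, Lcn2 and Mmp8, so low levels of these 3 were fixed in advance. The word mature therefore rests on the scarce genes named here and not on the whole list.

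The 7 genes with the largest shares of member UMIs were Fth1, the ferritin heavy chain, with 3.80%, Cxcl2, itself a ligand of Cxcr2, with 2.27%, Srgn, the proteoglycan of granules, with 2.10%, S100a9 and S100a8 with 1.6% and 1.37%, the actin gene Actb with 1.19% and Il1b, the secreted interleukin-1, with 1.14%. UMIs count tagged molecules and were not scaled by transcript length.

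Among the chemoattractant receptors, Ccr1 (1457 to 2514 CPM over the 8 libraries), the complement receptor C5ar1 (1338 to 2672) and Ccrl2 (1367 to 2714), which binds chemerin without signalling, were found in every library. Cxcr1, the relative of Cxcr2, had 18 UMIs in all and none in 5 libraries. Cxcr4, which holds neutrophils in the marrow and rises as they age, was at 443, 728, 1313 and 913 CPM in diabetic and 405, 800, 1035 and 627 CPM in control members of days 1, 3, 5 and 7. Of 8 tested receptors none passed the test between groups or over days described below.

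Cxcl2 was at 27636, 18203, 23323 and 27859 CPM in diabetic and 53514, 20996, 20506 and 28362 CPM in control members of days 1, 3, 5 and 7. The control day 1 library, of 6 cells, was the highest. Il1b was at 19440, 9297, 10349 and 14432 CPM in diabetic and 18135, 10593, 12511 and 14248 CPM in control members. Il1b had its highest level on day 1 in each group, while Cxcl2 was as high on day 7 as on day 1 in diabetic members. T cells had 2428 to 11176 CPM of Cxcl2 and 249 to 1676 CPM of Il1b. The part of free RNA in the members' levels of both was not tested. The interleukin-1 antagonist Il1rn was in every library, from 913 to 5023 CPM.

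The survival factor Mcl1, a short-lived protein on which neutrophils depend, was at 2903 to 5040 CPM in the 8 libraries, while Bcl2 had no UMI. Of the transcription factors, Cebpb, which supports emergency granulopoiesis, was at 2834 to 5016 CPM and Mxd1, a marker of late neutrophil stages, at 2049 to 3738 CPM. Of the receptors that sense microbes and damage, Clec4d was at 3197 to 5349, Clec4e at 3104 to 6791 and Trem1 at 1274 to 3396 CPM.

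Markers of other cell types differed in how far they appeared in members. Of the eosinophil list only Ccr3 was found, at up to 50.5 CPM, with Epx, Prg2 and Il5ra at 0 and Siglecf not analysed here. NK cell markers summed to 0 to 183 CPM, with Ncr1, Klrb1c and Eomes at 0, and B cell markers to 0 to 224 CPM, with Cd79a and Ms4a1 at 0. Mast cell markers summed to 0 to 365 CPM with Fcer1a, Ms4a2 and Gata2 at 0, T cell markers to 0 to 457 CPM, and those of fibroblasts and keratinocytes to 0 to 508 CPM with Krt5, Krt14 and Krt1 at 0. Erythroid genes reached 14.2 CPM.

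Macrophage, monocyte and dendritic cell markers were higher. All 8 macrophage genes were detected, summing to 1615 to 4476 CPM in diabetic and 648 to 5242 CPM in control libraries, and the 6 monocyte genes summed to 498 to 1187 and 567 to 1787 CPM. The 7 dendritic cell genes summed to 997 to 19587 CPM in diabetic and 405 to 5795 CPM in control libraries. The genes H2-Aa, H2-Ab1 and H2-Eb1 of that list, which encode the class II molecules that show antigen to T cells, are also made by macrophages.

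**Figure D4:**
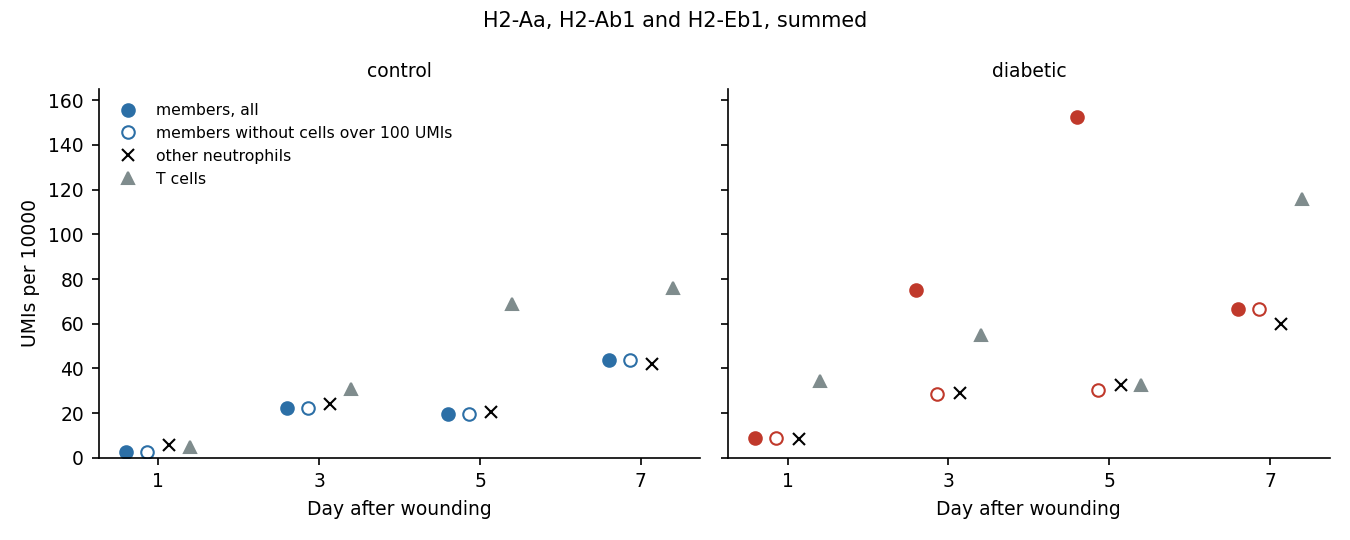
UMIs of H2-Aa, H2-Ab1 and H2-Eb1 per 10000 (vertical axis) by day in control (left, blue) and diabetic (right, red) libraries, for all members (filled circles), members without cells of over 100 such UMIs (open circles), other neutrophils (crosses) and T cells (triangles). Diabetic days 3 and 5 fall from 75.1 to 28.6 and from 152 to 30.1 when 1 cell each is left out.

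Whether genes differed between diabetic and control members was tested with edgeR's quasi-likelihood test on UMIs summed per library, with day as a block, over 485 genes and 8 libraries. Of 3 called genes (adjusted p under 0.05), all were class II genes higher in diabetic members (0.619% of genes tested), and 0 genes were lower. An unadjusted p under 0.05 was reached by 20 genes, and DESeq2 called 3. Without day as a block edgeR called 0 genes. With 1 library left out it called 0, or 1 without control day 3. H2-Aa was at 277, 2548, 5073 and 2558 CPM in diabetic and 81.0, 783, 1035 and 1628 CPM in control members of days 1, 3, 5 and 7. H2-Ab1 was at 498, 3052, 6134 and 2284 against 162, 891, 564 and 1718 CPM, and H2-Eb1 at 111, 1904, 4039 and 1827 against 0, 572, 376 and 1016 CPM. The diabetic level was higher on each day for all 3. Their log2 differences were 1.55 (SE 0.33), 1.72 (SE 0.38) and 1.86 (SE 0.42), each with an adjusted p of 0.0373 (edgeR), while Cd74, the invariant chain that travels with class II, gave 1.20 with an adjusted p of 0.519 (edgeR).

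These calls rested on 2 cells. One member of diabetic day 3 held 352 class II UMIs and one of diabetic day 5 held 508, against at most 19 and 16 in any other member of those libraries. Both were the deepest members of their libraries, with 7057 and 7771 UMIs. The day 5 cell also had 32 UMIs of the dendritic cell gene Cd209a and 16 of Ccr7, the receptor of migrating dendritic cells, together with 3 UMIs of Cxcr2 and 56 of S100a8 and S100a9. The day 3 cell had 1 UMI of Cd209a, 2 of Cxcr2 and 96 of S100a8 and S100a9. Whether each barcode held more than 1 cell was not tested.

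Without these 2 cells, a choice made after seeing the data, edgeR called 0 of 432 genes and 14 had an unadjusted p under 0.05. The class II sum then stood at 8.86, 28.6, 30.1 and 66.7 per 10000 in diabetic members and at 2.43, 22.5, 19.8 and 43.6 in control members of days 1, 3, 5 and 7. The order of the groups was kept on each day. The other neutrophils of the same libraries had 8.61, 29.1, 32.5 and 60.0 per 10000 in diabetic and 5.93, 24.0, 20.5 and 42.2 in control wounds, close to the members, and T cells, which lack these genes as a rule in mice, had 34.2, 54.9, 32.7 and 116 and 4.83, 30.6, 68.8 and 76.2. The part of free RNA in the members' level was not tested.

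No list of neutrophil genes held a called gene between the groups. The lists were chosen with earlier results known, and the median log2 difference over all 485 genes was 0.01. Of the secondary granule list 4 of 10 were tested, all lower in diabetic members but none called, with a median of −0.52, and of the glycolysis list 5 of 18 with a median of −0.37. Medians the other way were 0.32 for 5 chemokine ligands, 0.32 for 2 heat shock genes and 0.12 for 5 NADPH oxidase genes. Of 9 tested pattern and Fc receptors the median was −0.25 (edgeR, 0 called), of 9 immediate early genes −0.01, and of 6 interferon stimulated genes −0.01. With the 2 cells left out, the secondary granule median was −0.50 and the glycolysis median −0.28.

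Over days, 3 genes rose and 3 fell in members with both groups in 1 fit (edgeR, group as a term, 0.619% of 485 genes in each direction; 67 genes had an unadjusted p under 0.05). Rising were Apoe, a lipid carrier that macrophages make, and the ribosomal protein genes Rps20 and Rps26, and falling were G0s2, an inhibitor of the lipase that empties fat droplets, Txn1, the thioredoxin that reduces oxidised proteins, and Retnlg, a secreted resistin-like protein of neutrophils. DESeq2 called 4 in each direction. No slope was called by edgeR without the diabetic day 3 library, without the control day 1 library, with no filter on genes, or with cells thinned to 1000 UMIs and a limit of 1 Cxcr2 UMI, a setting that left 7 libraries and 201 genes.

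G0s2 was at 1772, 518, 303 and 91.3 CPM in diabetic and 1457, 558, 658 and 269 CPM in control members of days 1, 3, 5 and 7. It fell by 0.48 per day on the log2 scale (SE 0.09, adjusted p = 0.0133, edgeR). Day 1 was highest and day 7 lowest in both groups, and the day 1 levels rested on 32 UMIs in 6 cells and 18 UMIs in 3 cells. Other neutrophils had 625, 302, 611 and 353 CPM in diabetic and 816, 534, 648 and 525 CPM in control wounds.

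Txn1 was at 2326, 868, 1035 and 457 CPM in diabetic and 3562, 1273, 847 and 821 CPM in control members of those days, and it fell by 0.34 per day (log2, SE 0.07, adjusted p = 0.0285, edgeR). Both day 1 libraries stood above all others. In other neutrophils Txn1 was at 940, 1028, 833 and 583 CPM in diabetic and 966, 1013.5, 874 and 767 CPM in control wounds. Retnlg, at 2437, 1834, 1414 and 1187 CPM in diabetic and 4372, 2787, 659 and 1090 CPM in control members, fell by 0.29 per day (log2, SE 0.07, adjusted p = 0.0403, edgeR). The other neutrophils had 9705, 4523, 875 and 1136 CPM of Retnlg in diabetic and 5921, 2320, 1053 and 540 CPM in control wounds.

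Apoe was at 277, 672, 505 and 1735 CPM in diabetic and 0, 632, 847 and 2658 CPM in control members of days 1, 3, 5 and 7. It rose by 0.51 per day (log2, SE 0.10, adjusted p = 0.0133, edgeR), and day 7 was highest in both groups. Apoe was also present outside the members. Other neutrophils had 84.1, 824, 378 and 1648 CPM in diabetic and 62.7, 540, 1555 and 2666 CPM in control wounds, and T cells had 228, 1659, 854 and 2874 CPM and 431, 1511, 5364 and 4693 CPM. Apoe was one of the macrophage list, which as a whole summed to 1661, 2030, 1615 and 4476 CPM in diabetic and 648, 1717, 2069 and 5242 CPM in control members. The part of free macrophage RNA was not tested.

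Rps20 was at 0, 406, 808 and 1644 CPM in diabetic and 0, 273, 658 and 597 CPM in control members, with a slope of 0.55 per day (log2, SE 0.13, adjusted p = 0.0315, edgeR). Rps26 was at 332, 756, 1338 and 1735 against 162, 524, 564 and 926 CPM, with a slope of 0.34 (SE 0.08, adjusted p = 0.0403, edgeR). In other neutrophils Rps20 was at 141, 373, 265 and 634 CPM in diabetic and 115, 300, 405 and 598 CPM in control wounds. Rps26 was there at 291, 592, 471 and 759 against 266, 655, 666 and 1003 CPM. On diabetic day 5, the cell with 508 class II UMIs held 20 of the 32 UMIs of Rps20 and 39 of the 53 of Rps26. Without the 2 class II rich cells Rps20 was too low to be tested and the slope of Rps26 was 0.32 (adjusted p = 0.0903), and edgeR called 4 genes in each direction (0.926% of 432): Apoe, H2-Aa, H2-Ab1 and Cd74 rose, and G0s2, Txn1, Retnlg and Acod1, the enzyme that makes itaconate, fell. Among the lists, the secondary granule list held 1 falling gene of 4 tested (Retnlg) and the oxidative stress and iron list 1 of 9 (Txn1). The macrophage list held 1 rising gene of 2 (Apoe), and no call fell in the other neutrophil lists. The dendritic cell list held 3 rising genes of 4 (H2-Aa, H2-Ab1 and Cd74) without the 2 cells, and 0 with them.

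**Figure D5:**
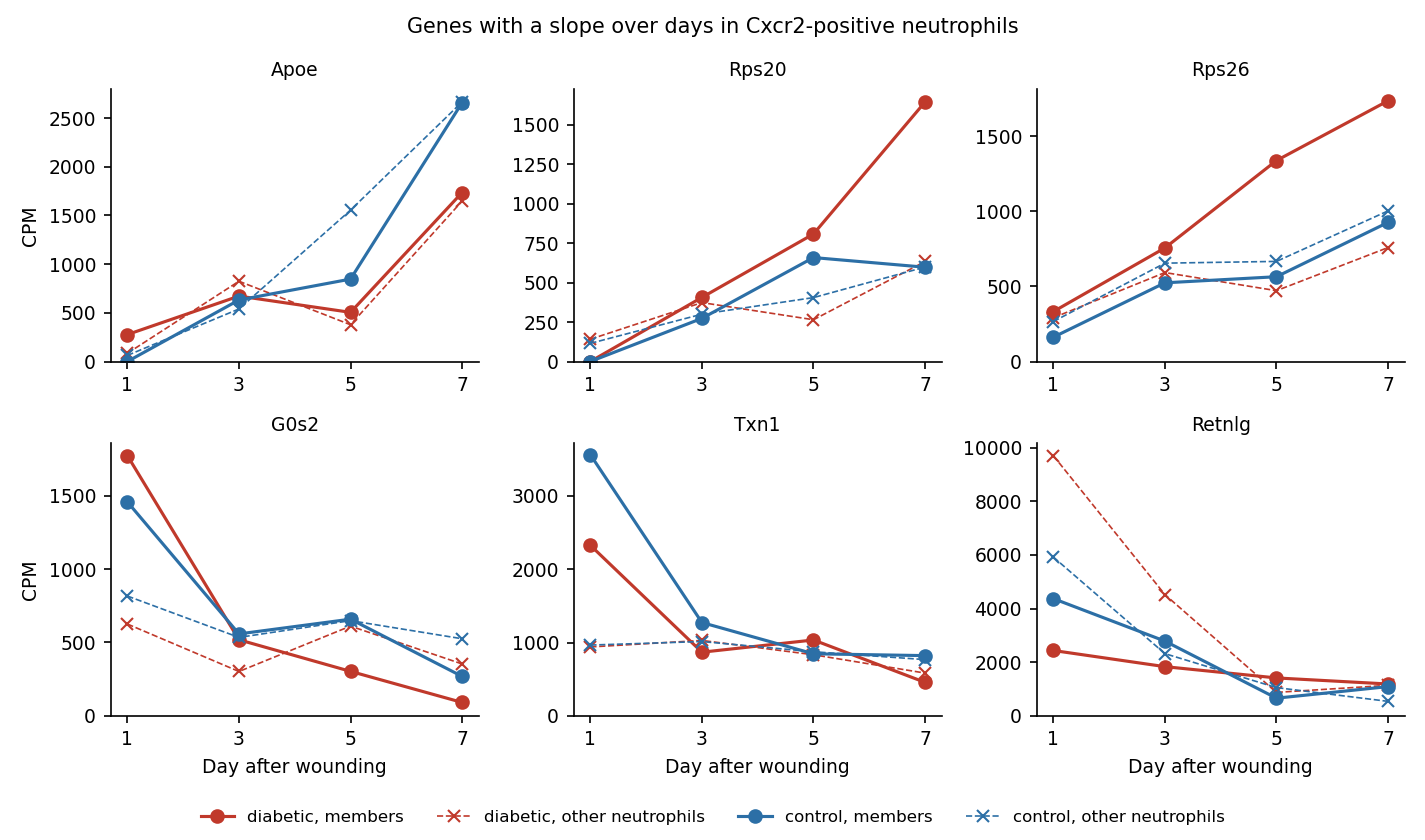
Level in CPM (vertical axis) by day after wounding of the 6 genes with a called slope, in members (circles) and other neutrophils (crosses, dashed) of diabetic (red) and control (blue) libraries. Apoe climbs in both kinds of cells to 1735 and 2658 CPM in members on day 7, while G0s2 drops in members from 1772 and 1457 CPM on day 1 to 91.3 and 269 CPM on day 7.

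Neither the groups nor the kinds of neutrophil could be shown to differ in these slopes. For the difference in slope between diabetic and control members edgeR called 0 of 485 genes, 18 had an unadjusted p under 0.05 and DESeq2 called 0. A test of whether members differed from the other neutrophils, with library as a block, gave 0 called genes for the difference between groups (28 at an unadjusted p under 0.05) and 0 for the slope (22), both by edgeR with no DESeq2 fit.

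The neutrophils closest to the members were those past every other limit with under 2 Cxcr2 UMIs. Within the day 3 libraries, the 2 with at least 20 cells of each, 1930 genes could be compared, with no test since the same cells were split on expression. At least 2-fold in both libraries, 5 genes were higher in members (0.259%) and 6 lower (0.311%), on the log2(CPM + 20) scale. Besides Cxcr2 itself, the higher ones were Egr1, an immediate early factor, at 1484 against 460 CPM in diabetic and 1458 against 697 CPM in control cells, and Cxcl3, a ligand of Cxcr2, at 798 against 384 and 1059 against 491 CPM. The non-coding RNA Mirt1 was at 196 against 76.7 and 222 against 89.3 CPM, and the kinase gene Nek6 had a log2 ratio of 1.06 in control cells and was at 70.0 CPM in diabetic members, with no UMI in the diabetic cells of low Cxcr2. Among the 33 diabetic members, Mirt1 rested on 14 UMIs in 5 cells and Nek6 on 5 UMIs in 5 cells. These differences moved with the processing: the mean log2 ratio of Cxcl3 was 0.02 and that of Egr1 0.88 with cells thinned to 1000 UMIs and split at 1 Cxcr2 UMI in place of 2, and that of Mirt1 was 0.48 with at least 3 Cxcr2 UMIs. Over the settings run, Mirt1 was counted as moved in 9 and as the same in 2. For Cxcl3 these counts were 7 and 5, and for Egr1 1 and 11, while Nek6 was the same in 7. Without the class II rich cell Mirt1 was at 140 CPM in diabetic members of day 3. Median depth was close in the 2 kinds of cells, at 2166 and 2002 UMIs in diabetic and 2206 and 1962 in control wounds.

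Lower in members were the lysosomal genes Rragc (log2 ratios −2.56 and −1.17), part of the nutrient sensor on lysosomes, and Hexa (−1.01 and −1.06), Ccdc186 (−1.69 and −1.44), B4galt1, which adds galactose to glycoproteins (−1.47 and −1.26), Gng2, a G protein subunit (−1.11 and −1.08), and the heat shock gene Hspa1b (−1.29 and −1.80). Among the 33 diabetic members, Hspa1b rested on 4 UMIs in 4 cells. With at least 3 Cxcr2 UMIs Gng2 was at −0.61 and Hexa at −0.74 on average, and with cells thinned and split at 1 Cxcr2 UMI Hspa1b was at −0.38. Gng2 was counted as moved in 7 settings and as the same in 2, Hexa in 6 and 4, and Hspa1b in 3 and 8. For B4galt1 these counts were 2 and 7 and for Ccdc186 2 and 6, while Rragc was the same in 9. Of 7 heat shock genes compared, 1 was at least 2-fold lower and the median was −0.66, against −0.02 over all genes. The markers Lrg1 (0.48 and 0.89), Hdc (0.48 and 0.18) and Il1r2 (0.38 and 0.21) were under 2-fold higher.

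Against the neutrophils over the limit on Ccl3, Il1a and Tnf, in the diabetic day 3, control day 3 and control day 7 libraries, 0 of 5888 genes were at least 2-fold higher in members in each library and 13 were lower (0.221%). Of these, 6 were genes of the rule. The others included the acute phase gene Saa3 (log2 ratios −2.50, −2.31 and −2.17), the protease inhibitor Serpinb2 (0 UMIs in members of all 3 libraries, against 137, 90.3 and 40.0 CPM), coagulation factor X (F10, −1.53, −1.27 and −3.07) and the chemokine Ccl4 (−1.98, −1.78 and −1.04). Il1b was at −0.35, −0.02 and 0.41, so it did not go one way. The compared cells were set apart by cytokine genes, so a difference in genes that vary with those is not independent of the choice.

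Against the neutrophils over the Ngp, Lcn2 and Mmp8 limit, 0 of 4919 genes were higher and 11 lower (0.224%), of which 6 were genes of the rule. Among the others were Cd177 (28.0, 8.54 and 0 CPM in members against 130, 44.1 and 26.3) and Saa3 (−2.58, −2.40 and −2.17). Granule genes set these cells apart, so a difference in Cd177 is not independent of the choice. Neutrophils over this limit and over the cytokine limit are in part the same cells, so the results for Saa3 are not separate ones. Against those over the interferon limit, 0 of 2640 genes were higher and 26 lower (0.985%). Of these 26, 7 were genes of the rule, and 4 were among the 13 compared genes of the interferon stimulated list. The others included Parp14 (56.0, 25.6 and 0 CPM in members against 249, 212 and 158), and the list genes included Irf7, which switches on interferon genes (−1.71, −1.59 and −1.66), and Slfn4 (−1.50, −1.66 and −1.62). Cells were set apart by interferon genes here, so a difference in others of that response is not independent of the choice.

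On day 3, where both groups had most members, levels were compared with exact Poisson intervals, which cover counting error of these 2 libraries and no difference between mice. Over all members 85 of 1260 genes were at least 2-fold higher in diabetic cells (6.75%) and 85 lower (6.75%). Without the class II rich cell these were 72 (5.86%) and 77 (6.27%) of 1229. Genes with under 50 UMIs over the 2 libraries were not compared, among them Chil3 of the lists (21 against 7 UMIs). Of the compared genes on the lists, those at least 2-fold higher with an interval above 1, without that cell, were Mt1, Ncf1, Alox5, Srxn1, Jak2, Hif1a, Casp4 and Ncf4, and those lower were Wfdc21, Slc2a3 and Plac8. The percentages above count genes by the 2-fold limit alone, so they are no background for this choice. The share of all compared genes that met both limits is not given here. The intervals of this and the later comparison of control days treat UMIs as independent, though many can lie in 1 cell. Slc2a3, for example, had 262 UMIs in 63 of 157 control cells of day 3. The intervals can therefore be too narrow. With that cell the ratios of Casp4 and Ncf4 were 1.99 and 1.82, under 2-fold. The day 3 values that follow leave it out, except where all cells are named.

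Mt1, a metal-binding metallothionein, was at 901 against 245 CPM (ratio 3.68, 95% interval 2.59 to 5.20). With all cells it was 7.38, since 71 of its 129 UMIs lay in 1 cell. Ncf1 and Ncf4, subunits of the oxidase that makes superoxide, were at 823 against 251 CPM (3.29, interval 2.29 to 4.67) and 264 against 131 CPM (2.02, 1.08 to 3.59). Alox5, which starts leukotriene synthesis, was at 311 against 120 CPM (2.60, 1.45 to 4.53), and Hif1a, the oxygen-sensing factor, at 621 against 279 CPM (2.23, 1.5 to 3.25). Other days did not all have this order. Values of all members of days 1, 5 and 7 are given next. Mt1 was at 775, 1313 and 639 CPM in diabetic and 162, 1411 and 1344 CPM in control wounds. Ncf1 was at 166, 555 and 822 against 405, 282 and 269 CPM, and Ncf4 at 55.4, 328 and 183 against 0, 0 and 164 CPM. Alox5 was at 277, 0 and 91.3 against 0, 0 and 74.7 CPM, and Hif1a at 332, 278 and 0 against 324, 94.1 and 209 CPM.

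The glucose transporter Slc2a3 was at 311 CPM in diabetic and 746 CPM in control members (ratio 0.42, interval 0.25 to 0.66). On days 1, 5 and 7 all members had 222, 303 and 548 CPM in diabetic and 81.0, 0 and 821 CPM in control wounds. Ly6g, the classical surface marker of mouse neutrophils, had 1 UMI against 57 (2 against 57 with all cells; ratio 0.0957, interval 0.00238 to 0.555), and the 57 UMIs lay in 16 of 157 cells, up to 11 in 1, so the interval over UMIs is too narrow. Cd274, which encodes the checkpoint ligand PD-L1, was at 870 against 245 CPM (3.55, 2.49 to 5.03). With all cells it was at 886, 379 and 0 against 405, 94.1 and 329 CPM on days 1, 5 and 7. Ly6g and Cd274 were on no list and were chosen after their values were seen. The other neutrophils of the same libraries differed the same way for Mt1 (842 against 278 CPM), Ncf1 (912 against 376), Cd274 (738 against 370), Hif1a (523 against 227), Slc2a3 (236 against 564) and Ly6g (63.1 against 134). They did not for Alox5 (87.7 against 103), for Wfdc21 (1210 against 599, with members at 233 against 592) or for Plac8 (185 against 155, with members at 15.5 against 142). These are values of 1 library each, and group and library cannot be told apart.

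In control wounds, where day 7 had 30 members against 157 on day 3, 63 of 1230 genes were at least 2-fold higher on day 7 (5.12%) and 124 lower (10.1%), again without a test. Higher were the macrophage genes Apoe (ratio 4.21, interval 3.43 to 5.15), C1qb (3.11, 2.16 to 4.45) and C1qc (6.05, 3.46 to 10.7), and Mt1 (5.49, 4.04 to 7.47). Lower were Isg15, an interferon-induced ubiquitin-like protein, with 2 UMIs against 122 (0.0860, 0.0103 to 0.317), the formyl peptide receptor Fpr2 (0.38, 0.25 to 0.56), the gelatinase Mmp9 (0.39, 0.26 to 0.56), Retnlg (0.39, 0.30 to 0.50) and the marker Lrg1 (0.44, 0.34 to 0.56). Ly6g had 0 UMIs on day 7 against 57 on day 3. The other neutrophils of these 2 libraries moved the same way from day 3 to day 7, in Apoe (540 to 2666 CPM), C1qb (196 to 930), C1qc (90.3 to 462), Mt1 (278 to 1248), Isg15 (263 to 158), Fpr2 (1005 to 782), Mmp9 (1204 to 525), Retnlg (2320 to 540), Lrg1 (1850 to 1096) and Ly6g (134 to 58.4). In T cells C1qb went from 439 to 1680 CPM. Apoe, C1qb and C1qc belong to the macrophage list, and the members of control day 7 had the highest sum of that list, 5242 CPM.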

How the data were processed

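The deposited files hold raw UMI counts per gene and cell, which the authors made with fastp (0.20.1 in the submitters' processing notes), UMI-tools and STAR. The methods name Ensembl annotation of the current mouse build at that time and BD Rhapsody, the processing notes name mm9 and the series record names 10X Genomics; the files give gene symbols only. Members and gene lists were chosen with earlier results of these data known, and the markers come from these samples. Cells were kept and chosen by the rule in the text; no doublet caller was run. Rates are per 10000 non-mitochondrial UMIs. UMIs were summed over members per library and tested in edgeR 4.0.16 (R 4.3.3; TMM, filterByExpr, quasi-likelihood F test, Benjamini-Hochberg, threshold 0.05; genes of the rule left out), with DESeq2 1.42.0 as an alternative. Fits planned for libraries of at least 20 members could not be made, because only 3 had them; at least 5 was used instead, chosen after seeing the data. Day after wounding, a shared time point and not shared mice, was the block. Deviations of log CPM from each gene's group mean correlated between same-day libraries at 0.334, 0.056, 0.135 and 0.155 on days 1, 3, 5 and 7. On simulated data for the comparison of diabetic and control, edgeR recovered 96.98% of 199 genes changed by 2 (log2) among 485, with 2.03% false calls. The simulation took gene means and library sizes from these sums, but its spread was set by hand and it held no day effect. These rates check the code and do not measure the power of the fits on the real libraries. Ratios within a library used a pseudocount of 20 CPM and genes with at least 50 UMIs. Promoters are from RefSeq (5 of 5 markers matched). Genes named are the largest called changes in each comparison, list members that passed, and levels needed as background. Each group and day is 1 library of pooled mice, so p-values rest on variation over days and not between mice. With day as a block, that is how far the difference between groups varied from day to day. In the slope fits it is the scatter of libraries around lines over days. Clec7a, Siglecf and 1 other gene of the lists are not reported here.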

Additional observations from a re-analysis of the deposited data

Results flagged for a closer look

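Of 38 groups of 4 libraries examined, 2 held a library that stood far from the other 3, where chance flags about 1 in 20. The control day 3 library had 3.27% members among its kept cells, against 0.136 to 0.645% on the other control days. Txn1 stood at 3562 CPM in control day 1 members, against 821 to 1273 CPM on the other control days, and rested on 44 UMIs in 5 of 6 cells, with 12 in the highest.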

How the results depend on the processing

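The difference in share of kept cells kept its direction in each setting tried, from −0.954 to −0.584, and from −1.02 to −0.0748 with 1 library left out; with cells thinned to 1000 UMIs and the Cxcr2 limit lowered to 1 UMI (2 choices changed together, called thinned from here on) it was −0.732, lower on 4 of 4 days (p about 0.13 by exact sign-flip permutation, the smallest possible). Correlations between same-day libraries, taken on deviations from the group means, did not all exceed 0.1. Without the replicate block for day, edgeR called 0 genes between groups (14 at an unadjusted p under 0.05) against 3 with it. It also called 0 with no filter on genes, over 500 genes per cell, at least 1 or 3 Cxcr2 UMIs, thinned cells, the deepest 5% of neutrophils left out, an S100a8 and S100a9 rate of at least 80, or members with Cd209a, Ccr7 or Flt3 or with over 100 class II UMIs left out; leaving out 1 library gave 0 to 1 (1, H2-Ab1, without control day 3). Slope calls were 6, against 0 with no filter, 0 thinned, 2 with over 500 genes, 2 at the S100 rate of 80, 12 without the deepest 5% and 11 for day 1 against later days; with 1 library left out they ran from 0 (without diabetic day 3 or control day 1) to 16 (without diabetic day 7), and were 2 without diabetic day 1, control day 5 or control day 7. Apoe and G0s2 were called in 14 of 21 settings each, Txn1 in 11 of 22, Rps20 in 10 of 19, Retnlg in 9 of 22 and Rps26 in 5 of 21. The difference of slopes gave 2 calls when thinned, 1 without members with Cd209a, Ccr7 or Flt3, and 0 to 1 with 1 library left out (1 without diabetic day 5). None of the 3 class II genes and 6 slope genes changed direction in the settings run.

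Genes at least 2-fold apart from neutrophils with under 2 Cxcr2 UMIs numbered 11, against 23 at 1 UMI, 6 at 3, 5 thinned (also split at 1 UMI), 37 with at least 20 UMIs per gene, 90 at 1.5-fold and 21 to 29 with 1 library left out. For the cytokine limit they numbered 13, against 34 thinned, 89 at 1.5-fold and 24 to 101 (101 without control day 3). For the granule limit they numbered 11, against 23 thinned, 57 at 1.5-fold and 14 to 86 (86 without control day 3, 21 without control day 7). For the interferon limit they numbered 26, against 14 thinned and 77 at 1.5-fold. Counts made without a library rest on fewer libraries in which a gene must pass. Fits with at least 20 or 50 members per library were not run, since 3 and 1 libraries remained. The causes of these changes were not tested.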
